A study of Drosophila melanogaster with 3 samples.

Results

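Mediator is a large protein complex that links sequence-specific transcription factors to RNA polymerase II at promoters. Its head and middle modules contact the polymerase, its tail module receives many activators, MED14 runs through the complex as a scaffold, and a separable kinase module built around Cdk8 docks reversibly onto this core. The binding of CG18764, a zinc-finger protein, was examined at the promoters of the genes that encode these subunits. The members are the 29 protein-coding genes whose symbol starts with MED and a digit, together with kto, skd, CycC and Cdk8, out of 13968 protein-coding genes on the main chromosome arms. By module, 10 belong to the head, 8 to the middle, 6 to the tail and 4 to the kinase module, and MED14 was kept apart. The gene ix, which encodes the fly MED29 and has another kind of symbol, fell outside the rule.

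Chromatin immunoprecipitation followed by sequencing was carried out on whole Drosophila melanogaster embryos, males and females together, collected 0 to 16 h after laying. All 3 biological replicates, which form the single group, came from flies stably carrying CG18764 fused at its C terminus to GFP, and the antibody recognised GFP. The labels give no promoter for the transgene, and whole embryos mix all cell types, so binding cannot be placed in any one of them. No control sample was analysed here, and the read depth behind the lists is unknown. The authors called peaks on dm6 as an optimal list of 3754 peaks, a relaxed list of 30000 peaks from the pooled replicates, and a relaxed list of 30000 for each replicate. Peaks were ranked within each list by the authors' signal value (rank 1 is the strongest), and the optimal list is the top of the pooled list. A gene had a promoter peak where a summit lay within 500 bp of any of its annotated transcription start sites (TSS).

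The sequences at the summits of 6 Mediator promoters are shown because they include the strongest site of each module, the site of lowest G+C content (MED17), and the only one with no other annotated TSS in reach (Cdk8). Each is the dm6 forward strand around the summit, from the RefSeq assembly, trimmed where an annotated exon begins. Capitals mark matches to TATAAA, and likewise to TAAATA, to the homeodomain core TAATTA and to CGATA, on either strand, with overlapping matches merged.
MED30, chr3L:654240-654360: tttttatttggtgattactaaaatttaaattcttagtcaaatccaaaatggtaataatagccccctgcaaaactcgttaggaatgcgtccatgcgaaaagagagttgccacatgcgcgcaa
MED17, chr3R:18188865-18188985: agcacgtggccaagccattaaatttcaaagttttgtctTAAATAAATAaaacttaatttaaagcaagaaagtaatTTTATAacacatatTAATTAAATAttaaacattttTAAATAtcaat
MED7, chr3R:10761065-10761147: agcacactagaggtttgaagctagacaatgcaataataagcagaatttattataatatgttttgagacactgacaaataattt
MED27, chr3R:5654920-5655040: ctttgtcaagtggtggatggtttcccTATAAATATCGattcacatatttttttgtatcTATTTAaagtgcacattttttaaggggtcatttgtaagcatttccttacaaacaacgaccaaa
skd, chr3L:21027761-21027881: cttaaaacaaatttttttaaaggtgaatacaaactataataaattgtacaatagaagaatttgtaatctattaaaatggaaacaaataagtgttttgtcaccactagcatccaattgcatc
Cdk8, chr3L:9838671-9838782: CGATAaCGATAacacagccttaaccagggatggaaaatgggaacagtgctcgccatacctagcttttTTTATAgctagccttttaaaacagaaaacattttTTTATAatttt
All 6 are rich in A and T, and neither MED30, MED7 nor skd held any of the marked letters.

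Of the 29 Mediator genes, 11 (37.9%) had a promoter peak in the optimal list, against 17.9% of all protein-coding genes. They were MED30, MED17 and MED6 of the head, MED7, MED4 and MED31 of the middle, MED27, MED16 and MED25 of the tail, and skd and Cdk8 of the kinase module. No summit was shared between Mediator genes, though 9 of the 11 also lay within 500 bp of another protein-coding gene's TSS. The median rank of these 11 summits was 1507, close to the median of 1545 over all protein-coding genes with a promoter peak. The share of Mediator genes with a peak was above that of all genes, while the ranks of their peaks were near the median. No test was made of the counts, since there is 1 group of samples and genes are not replicates.

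The replicates gave similar counts at a matched list length. Among the 3754 highest peaks of replicates 1, 2 and 3, promoter summits were found at 12, 9 and 11 Mediator genes (10.7 ± 1.53, SD, n = 3), against 17.0%, 17.6% and 18.0% of all protein-coding genes. As shares of the 29 these were 41.4%, 31.0% and 37.9%, higher in each replicate than the share of all genes. In the whole relaxed lists the counts were 15, 23 and 25 (21 ± 5.29, SD, n = 3), against 39.7%, 50.8% and 53.2% of all protein-coding genes. Replicate 1 was lowest both for Mediator genes and for all genes. The pooled relaxed list had a promoter peak at 20 Mediator genes (69.0%), against 49.1% of all protein-coding genes.

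**Figure D1:**
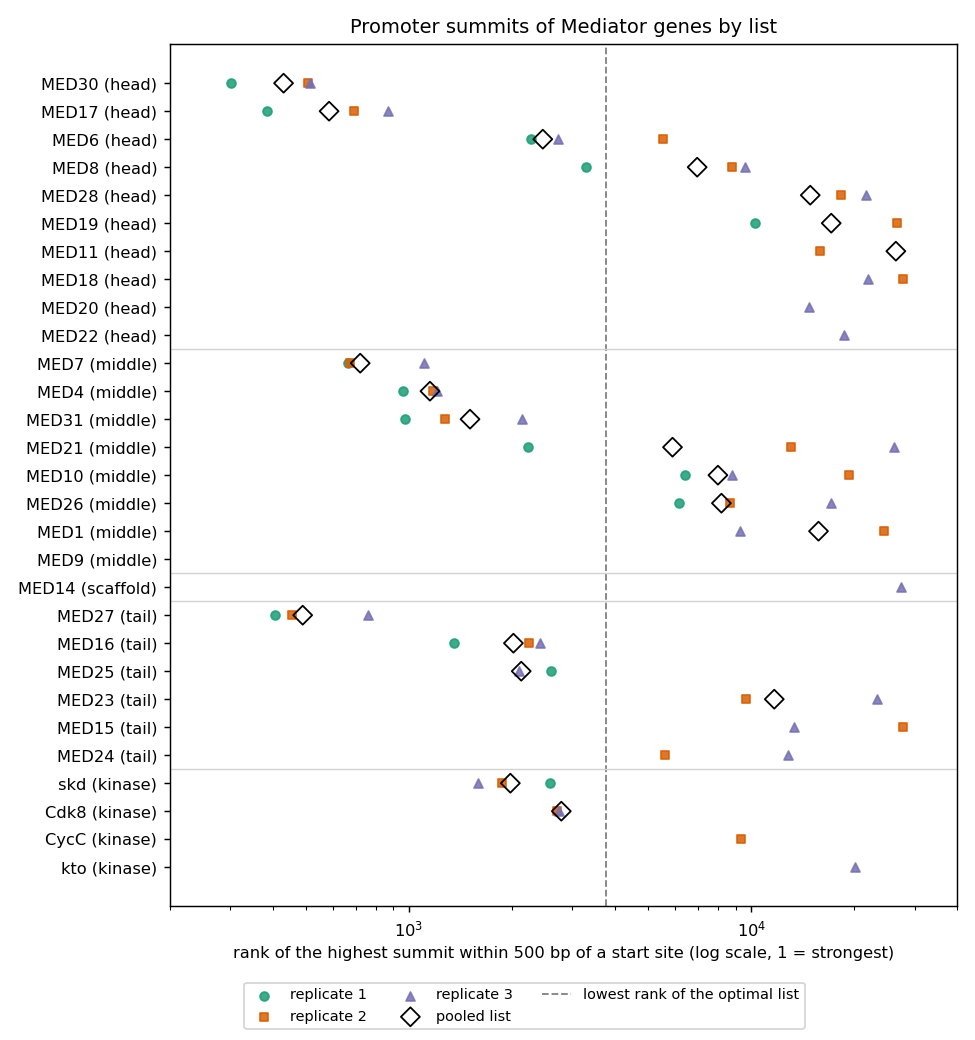
Rank of the highest summit within 500 bp of a start site for each of the 29 Mediator genes, by module, in the pooled list (diamonds) and the 3 replicate lists (coloured symbols); the axis is logarithmic and a missing symbol means no summit in that list. The dashed line is the lowest rank of the optimal list, 3754; 11 diamonds lie left of it and none between 2785 and 5884.

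In the head module, which binds the polymerase and general factors, 3 of 10 genes had an optimal promoter peak. MED30 had the highest rank of all Mediator genes, at 430, with its summit at 3L:654300, and it ranked 302, 507 and 513 in replicates 1, 2 and 3 (441 ± 120, SD, n = 3). MED17, the central subunit of the head, ranked 584 at 3R:18188925, and 385, 689 and 870 in the replicates (648 ± 245). MED6 ranked 2459 at 3R:9767807. Its replicate ranks were 2267, 5513 and 2729 (3503 ± 1756), so replicate 2 placed it outside its own 3754 highest peaks. The MED6 summit lay inside an exon of MED6, 8 bp after one of its 5 TSS, and was the only one of the 11 summits downstream of the member's TSS.

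The other 7 head genes had no optimal peak. MED8 came nearest, at pooled rank 6946, with ranks of 3282, 8754 and 9587 in replicates 1, 2 and 3, so that replicate 1 alone held it among its 3754 highest. MED28 (pooled rank 14860), MED19 (17114), which binds Hox proteins in the fly, and MED11 (26432) had pooled summits of lower rank. MED18, MED20 and MED22 had none in the pooled list. MED20 and MED22 had a promoter summit in replicate 3 only, at ranks 14733 and 18686, and MED18 had one in replicates 2 and 3, at 27670 and 21961.

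In the middle module, 3 of 8 genes had an optimal promoter peak and 7 of 8 a pooled relaxed one. MED7, which forms the hinge of the module with MED21, ranked 720 at 3R:10761125, and 663, 673 and 1106 in the replicates (814 ± 253, SD, n = 3). MED4 ranked 1151 at 3L:7250708, and 962, 1177 and 1210 in the replicates (1116 ± 135), a close set. MED31 ranked 1507 at 3R:4641802. The replicate summits within 100 bp of that site ranked 972, 1274 and 12311 in replicates 1, 2 and 3 (4852 ± 6461). Replicate 3 had a stronger summit, of rank 2141, at −325 bp from the TSS (negative values are upstream), and the mean rank became 1462 with matching within 200 bp and 1123 without replicate 3.

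MED21 was the Mediator gene just outside the optimal list, at pooled rank 5884. Its replicates were far apart, at ranks 2223, 13034 and 26073. MED10 (pooled rank 7986), MED26 on chromosome 4 (8176) and MED1 (15710), which binds nuclear receptors, followed. MED9 was the 1 Mediator gene with no promoter summit in any of the 5 lists, and its nearest pooled summit lay 4791 bp from its TSS.

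In the tail module, 3 of 6 genes had an optimal promoter peak. MED27 ranked 489 at 3R:5654980, and 406, 454 and 758 in the replicates (539 ± 191, SD, n = 3). MED16 ranked 2018 at 2R:22183034, and 1350, 2246 and 2415 in the replicates (2004 ± 572). MED25, known as a target of activators, ranked 2127 at 3R:20008857. It ranked 2597 and 2092 in replicates 1 and 3, and replicate 2 had no summit closer than 9036 bp. Of the others, MED23 had a pooled summit of rank 11666. MED15, which binds activators, and MED24 had none in the pooled list and only replicate summits, MED15 at 27697 and 13359 and MED24 at 5594 and 12810 in replicates 2 and 3.

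In the kinase module, 2 of 4 genes had an optimal promoter peak, both of lower rank than the first of every other module. The gene skd, which encodes the subunit MED13 that joins the kinase to the core complex, ranked 1977 at 3L:21027821, and 2581, 1873 and 1594 in the replicates (2016 ± 509, SD, n = 3). Cdk8, the kinase itself, ranked 2785 at 3L:9838722. It ranked 2713 and 2747 in replicates 2 and 3, while the nearest summit of replicate 1 lay 6237 bp away. CycC, the cyclin partner of Cdk8, had a promoter summit in replicate 2 only, at rank 9325, and kto, which encodes MED12, the activator of Cdk8, in replicate 3 only, at 20092. The scaffold gene MED14 had one in replicate 3 only, at rank 27345.

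The modules did not order themselves in 1 way. By the optimal list the shares were 30% of the head, 37.5% of the middle, 50% of the tail and 50% of the kinase module, each above the 17.9% of all protein-coding genes. By the pooled relaxed list they were 70%, 87.5%, 66.7% and 50%, against 49.1% of all genes, so the middle module came first and the kinase module was at the background. In the 3 replicates, at the matched length, the head had 4, 2 and 3 genes, the middle 4, 3 and 3, the tail 3, 2 and 3, and the kinase module 1, 2 and 2. A difference of 1 gene between replicates of the same module is as large as most differences between modules, so these counts do not tell the modules apart.

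**Figure D2:**
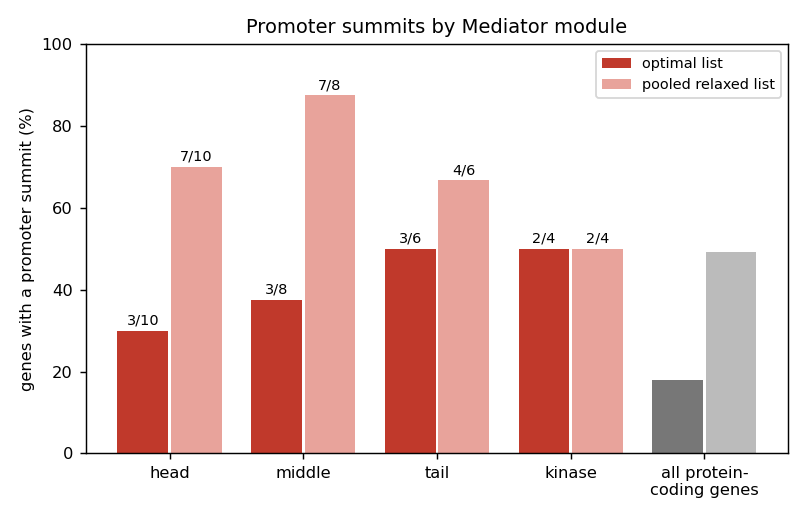
Share of genes with a promoter summit in each Mediator module (red) and among all protein-coding genes (grey), in the optimal list (dark bars) and the pooled relaxed list (pale bars), with gene counts above the module bars. All 4 modules stand above the grey bar in the optimal list, at 30% to 50% against 17.9%; in the relaxed list the kinase module, at 50%, is level with the 49.1% of all genes.

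Reading down the pooled list, Mediator genes were ahead of all protein-coding genes at every length examined. Among the 500 highest pooled peaks, 2 Mediator genes (6.90%) had a promoter summit, against 3.26% of all protein-coding genes. Among the 2000 highest the values were 7 genes (24.1%) and 11.0%. Between 3754 and 5000 peaks no Mediator gene was added, at 37.9%, while all genes stood at 22.0%. Among the 10000 highest the shares were 51.7% and 33.2%. A promoter summit in every replicate's relaxed list was found for 13 Mediator genes (44.8%), against 28.2% of all genes, and in every replicate's 3754 highest for 8 (27.6%), against 11.8%. Where each summit was given only to its nearest TSS, 6 Mediator genes (20.7%) had one in every replicate's relaxed list, level with the 20% of all genes. Under the same rule the pooled relaxed list had 15 Mediator genes (51.7%), against 40.6% of all genes.

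**Figure D3:**
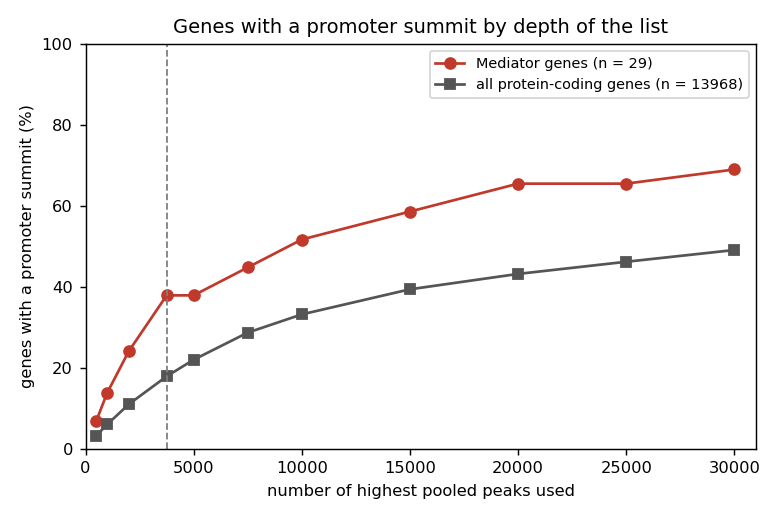
Share of Mediator genes (red circles) and of all protein-coding genes (grey squares) with a promoter summit, as the number of highest pooled peaks used is increased; the dashed line marks the 3754 optimal peaks. The red curve lies above the grey one at each point, with 37.9% against 17.9% at the dashed line and 69.0% against 49.1% at 30000 peaks.

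Most summits lay a short way upstream, and most were shared with a neighbouring gene. Their median position was −147 bp from the member's TSS, against −131 bp over all protein-coding genes with a promoter peak. Of the 11 summits, 10 lay upstream of the member's TSS and 10 within 250 bp of it, the skd summit at −387 bp being the farther one. Replicate positions were closest for MED30, at −203, −204 and −209 bp, followed by MED6, at 23, 10 and 8 bp, and MED27, at −164, −177 and −161 bp. They were widest for MED31, where the highest summits lay at −188, −204 and −325 bp. The TSS of another protein-coding gene was within 500 bp of 9 of the 11 summits, and the same held for 60% of all protein-coding genes with a peak.

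The neighbours on the opposite strand have varied functions. The MED30 summit lay 63 bp upstream of Rev1, a DNA polymerase of damage tolerance, and so nearer to it than to MED30 at −211 bp. The skd summit was likewise nearer to Pdss2, an enzyme of coenzyme Q synthesis (−94 bp), and the MED27 summit nearer to elm (−119 bp against −159 bp for MED27). The reverse held for MED7, at −93 bp, against −185 bp for the condensin gene Cap-H2, and for MED17, at −147 bp, against −218 bp for CG12321. MED16 (−104 bp) was also nearer than CG11170 (−155 bp), MED25 (−90 bp) nearer than Hs6st (−345 bp), which encodes a heparan sulfate sulfotransferase, and MED6 (8 bp) nearer than the acetyltransferase gene Naa80 (−27 bp).

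MED31 and MED4 were of another form. MED31 shares its annotated TSS with slx1, a nuclease gene on the same strand, and its summit lay in an exon of CG9775, 36 bp after one of that gene's TSS. The MED4 summit lay in an exon of the antisense RNA gene asRNA:CR43470, 68 bp after its TSS, and reached no other protein-coding gene. Where each summit was given only to its nearest TSS, 6 Mediator genes (20.7%) kept an optimal peak, against 12.8% of all protein-coding genes. They were MED17, MED6, MED7, MED16, MED25 and Cdk8.

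**Figure D4:**
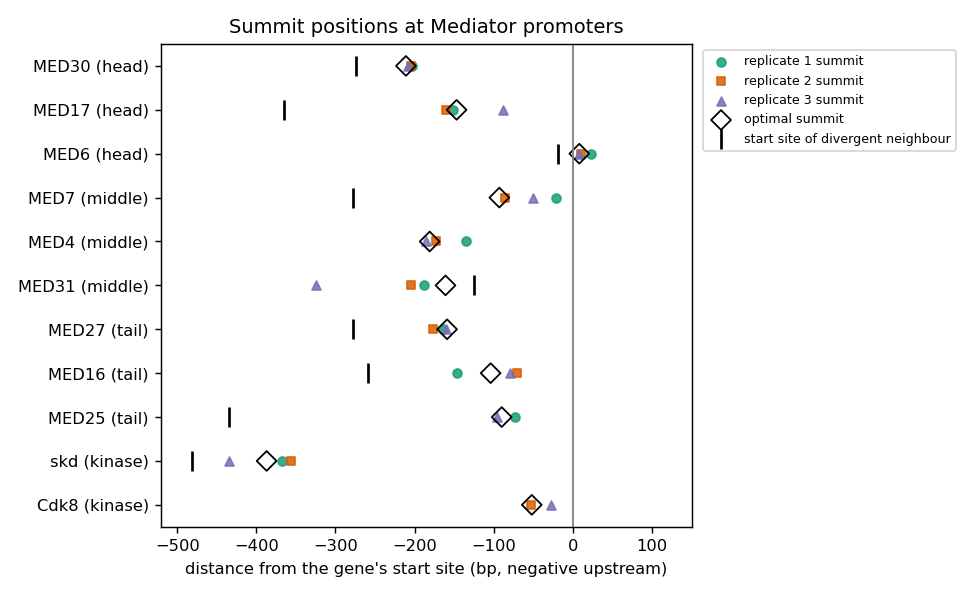
Position of the promoter summit relative to the gene's start site (at 0, negative upstream) for the 11 Mediator genes with an optimal peak: optimal summit (diamonds), highest summit of each replicate (coloured symbols) and the start site of a divergent protein-coding neighbour (black bars). Replicate 2 has no symbol for MED25 and replicate 1 none for Cdk8; 7 of the diamonds lie between the start sites of a divergent pair.

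Mediator genes are often arranged head to head with a neighbour. An opposite-strand protein-coding TSS lay within 1000 bp upstream of 21 of the 29 (72.4%), against 36.2% of all protein-coding genes. Among genes so arranged, 9 of the 21 Mediator genes (42.9%) had an optimal promoter peak, against 32.6% of all such genes. Among the others, 2 of 8 (25%), Cdk8 and MED4, had one, against 9.57%. This split was chosen after the shared summits had been seen. The difference between Mediator genes and all genes was smaller among divergent genes than in the whole list, and the part of this arrangement in the result was not tested.

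A divergent neighbour was also present at 12 Mediator genes with no optimal promoter peak. Of the 12 divergent Mediator genes with no optimal peak, 11 had a neighbour without one either, among them MED20 with Trf, a TBP-related factor, CycC with the respiratory gene UQCR-C1, and MED9 with the nucleoporin gene Nup75. The exception was MED15, whose neighbour CG4297 had a summit of rank 372, 571 bp from the MED15 TSS and so just outside the window. The distance between the 2 TSS had a median of 278 bp (19 to 481 bp) at the 9 divergent Mediator genes with a peak, and of 102 bp (26 to 859 bp) at the 12 without. Where the 2 TSS are close, a summit within 500 bp of the neighbour mostly lies within 500 bp of the member too. The count of 11 was therefore largely fixed by the window, and no such share over all divergent genes is given here.

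Within the gene bodies, beyond 500 bp of any of the gene's own TSS, the Mediator genes held 1 optimal summit. It lay in an intron of skd, the longest of them, at 3L:21007901, 19533 bp from the gene start, and ranked 2165. Replicates 2 and 3 ranked it 2645 and 1295, and replicate 1 had no summit within 100 bp. Another 11 pooled relaxed summits lay in skd, and 5 in all other Mediator genes together. Those in skd included promoter summits of other genes, at 3L:21003427 for asRNA:CR45944 and at 3L:21006830 for scaRNA:PsiU6-40. The length of skd is 34621 bp, against a median of 1330 bp over the Mediator genes. These counts were not scaled to length or set beside those of all genes. By chromosome arm, an optimal promoter peak was present at 6 of 8 Mediator genes on 3R, against 20.5% of all protein-coding genes there, and at 4 of 12 on 3L, against 19.2%. It was present at 1 of 4 on 2R, against 16.4%. The other 5 had none, namely 2 on X, 2 on 2L and 1 on chromosome 4, where 15.3%, 17.3% and 16.2% of all protein-coding genes had one.

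The summits were low in G+C content. Over the central 100 bp it averaged 31.5% ± 11.5 at the 11 Mediator summits, with 48.1% ± 7.49 in windows 300 bp to either side (SD across peaks). Over the 1991 optimal promoter peaks the values were 34.2% ± 9.54 and 43.8% ± 7.42. It was lower at the centre than in the flanks at 9 of 11 Mediator summits, against 75.6% of all promoter peaks. The lowest was MED17, at 16.0% against 42.5% in its flanks, followed by MED7 (22%) and skd (23.0%). The exceptions were MED6, at 60% against 49.5%, and Cdk8, at 38% against 33.5%.

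**Figure D5:**
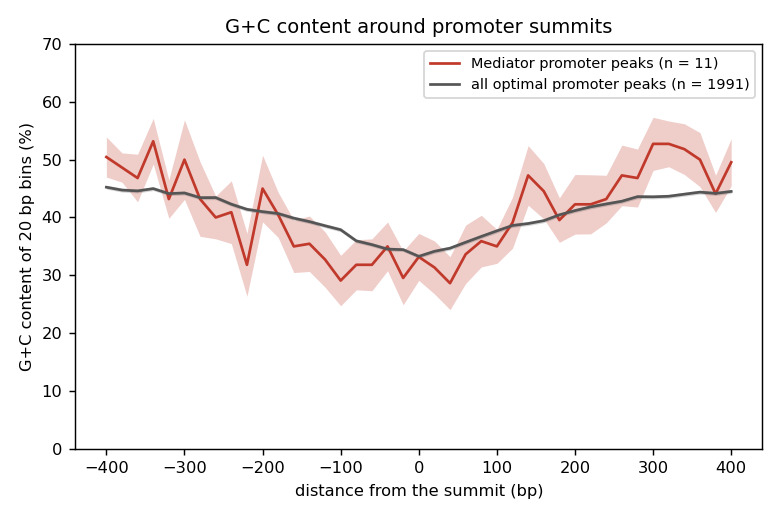
Mean G+C content in 20 bp bins by distance from the summit, for the 11 Mediator promoter peaks (red) and all 1991 optimal promoter peaks (grey); bands are the standard error across peaks. Both curves are lower near the summit than 300 bp away, at 33.2% and 33.3% in the central bin, and the red band is wide because it rests on 11 peaks.

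Known promoter sequences were searched on both strands in the 100 bp around each summit. The DRE sequence TATCGATA, bound by Dref, was at 0 of 11 Mediator summits, against 3.92% of all optimal promoter peaks. Its core CGATA, also bound by BEAF, was at 2 (MED27 and Cdk8), against 23.9%. The TATA box TATAAA was at 3 (MED27, MED17 and Cdk8), against 22.1%, and TAAATA at 2 (MED27 and MED17), against 31.1%. The GATA core GATAA was at 2, the homeodomain core TAATTA at 1, the GAGA sequence GAGAG at 1 and the E-box CANNTG at 1, against 24.3%, 10.5%, 7.63% and 33.2%. With 11 summits, these counts are too small to set a Mediator share apart from the share of all promoter peaks.

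The promoters themselves were searched from 250 bp upstream to 50 bp downstream of the 5′-most TSS. The MED6 summit lay at another TSS of that gene, more than 500 bp from the 5′-most one, so the MED6 window searched lacked the peak. The DRE sequence was present in 7 of 29 (24.1%), against 9.36% of all protein-coding promoters. It was in 3 of the 11 with an optimal peak (MED7, MED17 and MED25), at 83 to 124 bp from the summit, and in 4 of the 18 without one (MED8, MED9, MED18 and MED28). Over all genes with the DRE sequence in this window, 29.7% had an optimal promoter peak, against 3 of 7 Mediator genes. The letters CGATA were in 14 of the 29, TATAAA in 15, GATAA in 15, TAAATA in 16, CANNTG in 22, TAATTA in 10 and GAGAG in 6. Of all promoters these were in 47.3%, 45.8%, 55.1%, 50.2%, 77.2%, 20.4% and 29.7%.

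The core GGTCACACT of the element bound by M1BP, a zinc-finger protein of housekeeping promoters, was unevenly spread among Mediator genes. It was in the window of none of the 11 Mediator genes with an optimal promoter peak and of 9 of the 18 without one. For MED6 that window was not at the TSS with the peak. Over all protein-coding genes it was in the window of 8.71% of genes with an optimal promoter peak and 5.45% of those without. It was in 6.04% of all protein-coding promoters together, against 9 of the 29 Mediator promoters (31%). Of the 843 genes with the sequence, 25.9% had an optimal promoter peak, against 0 of the 9 Mediator genes, so the direction in Mediator genes was the opposite of that over all genes. The 9 were MED8, MED11, MED19, MED20 and MED22 of the head, MED10 of the middle, and MED15, MED23 and MED24 of the tail. Of these, 7 are divergent, near the share of all Mediator genes (21 of 29, 72.4%). A relaxed pooled summit was present at 5 of the 9, with ranks between 6946 and 26432. Among all 18 Mediator genes without an optimal peak, 9 had one. The 49.1% of all protein-coding genes with a pooled summit includes those with an optimal peak, so it was not set beside these 9. The pattern was noticed among 9 searched sequences and was not tested.

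The sites in 7 of these promoters are shown to make the shared element visible; each is printed 5′ to 3′ on the strand of the Mediator gene, with the matched letters in capitals and 10 bases on either side.
MED11, chr3L:18745837-18745865, forward strand: ctcgtgttctGGTCACACTgttatctggt
MED22, chrX:928122-928150, forward strand: gaaaatacgtGGTCACACTgtacatataa
MED15, chr2L:473009-473037, forward strand: tgcctgaaacGGTCACACTgtgctcagag
MED20, chr2L:8072823-8072851, reverse strand: agtcagcactGGTCACACTggacgctttt
MED19, chr3L:17846475-17846503, reverse strand: gtcgcaatgcGGTCACACTggttcgcgga
MED24, chr3L:8191277-8191305, forward strand: aagatacctcGGTCACACTgagcgctgct
MED10, chr3L:16232006-16232034, forward strand: gcgattgaacAGTGTGACCttgctattcc
With the TSS base counted as 0, the first matched base lay at −9 in MED11, −7 in MED22, 6 in MED15, 7 in MED20, 8 in MED19 and 17 in MED24. In MED10 the element was at −68 and in the opposite orientation, which is that of its neighbour PDCD-5. In 8 of all 9 promoters it was in the orientation of the Mediator gene. The orientation was not read over all protein-coding promoters, so this count has no share beside it and is not a trait of Mediator genes.

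Other genes of RNA polymerase II transcription were read in the same way. An optimal promoter peak was present at 4 of 13 Polr2 genes (30.8%), which encode the polymerase and an associated protein, and at 6 of 15 Taf genes (40.0%), which encode TFIID subunits and their paralogs. Of the 11 genes with an IntS symbol, which encode subunits of the Integrator complex that cleaves nascent RNA, 5 (45.5%) had one. They were led by IntS6 (rank 585) and IntS9 (682). Any Integrator subunit with another kind of symbol fell outside this list. The kinases of the polymerase's C-terminal domain other than Cdk8, with their cyclins and the assembly factor Mat1, had 2 of 7 (28.6%), Cdk7 (656) and Cdk12 (1173). Pausing and elongation factors had 5 of 10 (50%), led by Nelf-E (228, with no promoter summit in replicate 2) and lilli (1044), and cohesin with its loader had 3 of 6 (50%), led by SA1 (647). The Mediator share of 37.9% lay within the 28.6% to 50% spanned by these groups, and all of them were above the 17.9% of all protein-coding genes.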

How the data were processed

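Peak lists on dm6 in narrowPeak form were deposited. Per the file listings, each replicate list came from 1 replicate with a control, the pooled list from all 3 replicates with the control, and the optimal list from those lists by irreproducible discovery rate thresholding. The aligner and peak caller, with their versions, were not given in the sources used here. The authors' signal value is a score of unstated scale, used only for ranks within a list. A −log10 q value was also deposited by the authors; it was tied at the maximum in 3449 optimal peaks and left unused, and the column for p holds −1 throughout. Summits came from the deposited summit offset.

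Gene models were those of Ensembl release 115, without transposable elements, and sequence came from the RefSeq assembly of the same build; coordinates are 1-based. Lists on dm3 were not used. Replicate summits were matched within 100 bp. Modules follow the usual assignment of the subunits. Members, modules, gene lists and motifs were chosen with earlier results of these data known, and every member is named. No test was made, since there is 1 group; its 3 biological replicates give the spread. The counting was tested on simulated summits. Alternatives changed the window, TSS, peaks, replicates and modules. Python 3.11.15, numpy 2.4.6, pandas 2.3.3 and matplotlib 3.10.9 were used.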

Additional observations from a re-analysis of the deposited data

How the results depend on the processing

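Of 81 alternative counts, 53 stayed within 1.5 times the reported one. The count of 11 Mediator genes with an optimal promoter peak became 4 with a window of 100 bp and 6 with the nearest TSS only. It became 7 in the 2000 and 4 in the 1000 highest peaks. In peaks matched within the 3754 highest of each of the 3 replicates it was 7. As shares of the Mediator genes these counts were, in this order, 13.8%, 20.7%, 24.1%, 13.8% and 24.1%. The shares of all protein-coding genes were, in the same order, 6.41%, 12.8%, 11.0%, 6.01% and 11.0%. Without a replicate, which keeps only peaks matched within the 3754 highest of both others, the count ranged from 8 to 9. The shares without replicates 1, 2 and 3 were 27.6%, 31.0% and 27.6%, against 13.1%, 12.0% and 12.4% of all protein-coding genes. The head, middle, tail and kinase counts of 3, 3, 3 and 2 became 1 each at 100 bp, and the kinase count 1 at 250 bp. With the nearest TSS only the middle and kinase counts were 1 each. In the 2000 highest peaks the tail and kinase counts were 1 each. In the 1000 highest the middle and tail counts were 1 each and the kinase count 0. In peaks matched within the 3754 highest of all 3 replicates the kinase count was 1. Without a replicate the kinase count ranged from 1 to 2, the value being 1 without replicate 2 or 3, and the head, middle and tail counts from 2 to 3. Another assignment of MED14, MED19 and MED27 to MED30 gave 2, 3, 4 and 2, and adding ix left the optimal count at 11. The 20 genes with a pooled relaxed promoter peak became 10 at 100 bp (22.1% of all protein-coding genes) and 11 in the 3754 highest (17.9%). With the nearest TSS only they became 15 (51.7%), against 40.6% of all genes. Without a replicate, here with matching to the whole relaxed lists of both others, they ranged from 13 to 15 (24.1% to 32% of all genes). The 13 genes with a peak in every replicate became 4 at 100 bp (6.77% of all genes), 6 with the nearest TSS only and 8 in the 3754 highest (11.8%). With the nearest TSS only the share of Mediator genes with a peak in every replicate, 20.7%, was level with the 20% of all genes. Without a replicate the count ranged from 14 to 20 (30.4% to 42.5% of all genes), 20 being without replicate 1. Of 55 mean ranks recomputed, 2 moved by over 1.5 times, both of MED31, whose mean of 4852 became 1462 with matching within 200 bp and 1123 without replicate 3. Ranking by p-value was not run, because the lists give none. No paired analysis was possible because there is a single group. Read depth is unknown, so a missing summit does not show that a site was unbound.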
